A study of Arabidopsis thaliana with 16 samples.

Results

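The comparison described here is between *fer* and WT seedlings of *Arabidopsis thaliana* that had both been given arabidopside A. All 4 *fer* and 4 WT arabidopside A libraries were compared, 8 of the 16 libraries of the series, and the question was which differences between the genotypes remained when both were treated. WT was Col-0. The mutant, *fer-4* (hereafter *fer*), is 1 insertion line with almost no transcripts of *FERONIA* (*FER*). Seedlings of both genotypes were 10 days old, had been moved from plates to liquid medium and kept there for 2 h, and then received arabidopside A at 12.5 µM for 2 h before whole seedlings were frozen. The other 8 libraries, 4 per genotype, were seedlings labelled control, and whether those received the solvent alone is not given in the sources used here. The number of seedlings pooled in a library and whether a replicate number stood for a shared day are not given either, and the labels call the replicates biological. RNA was profiled with QuantSeq, which reads a short stretch at the 3′ end of each transcript, so that the count of a gene depends on its number of transcripts and not on its length.

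FER is a receptor kinase of the plasma membrane whose extracellular malectin-like domains bind cell wall pectin and whose signalling is set by small secreted RALF peptides together with a GPI-anchored LLG co-receptor. The mutant is known for altered cell expansion, root hairs and wall sensing and for altered immune and hormone responses. Arabidopside A is a galactolipid of the chloroplast membrane that carries the oxylipins OPDA and dinor-OPDA as its acyl chains. Free OPDA is reduced in the peroxisome and shortened to jasmonic acid, which is joined to isoleucine to give the active hormone. The hormone makes its receptor COI1 bind the JAZ repressors, the JAZ proteins are degraded, and MYC2 and related factors are released. Among the genes that MYC2 then activates are the *JAZ* genes themselves and several genes of jasmonate synthesis, so that the pathway holds a negative and a positive feedback. OPDA and other electrophilic oxylipins also induce detoxification genes without the hormone.

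*FER* transcript levels checked the labels. *FER* (AT3G51550, TAIR10.1 chr3:19117584-19120949, minus strand) was measured at 136, 96.5, 126 and 93.9 CPM in WT and 0, 0.41, 1.21 and 2.23 CPM in *fer*, given here and below for replicates 1 to 4 in that order and in TMM-scaled CPM (counts scaled by library size). Every *fer* library lay far below every WT library (log2 fold change -7.09 ± 0.52 (SE), adjusted p = 7.98e-05, edgeR quasi-likelihood test with Benjamini-Hochberg adjustment, which is the test behind every adjusted p given here). Total counts were 3731548 to 5212147 in WT and 4994304 to 26358335 in *fer*, where replicate 2 was the deepest. The first principal component of the 8 libraries held 69.8% of the variance and separated the genotypes, but the *fer* libraries were spread over it: the WT libraries scored -63.3 to -48.6, and the *fer* libraries 13.9, 37.9, 69.2 and 102.0. The 28 shoot markers, genes of the photosystems and Rubisco, together held 35959 to 40678 CPM in WT and 16200 to 27409 CPM in *fer*, with no overlap, and 11 measured root markers 225 to 284 CPM and 262 to 363 CPM. None of the shoot or root markers was without counts in either group. In RNA from whole seedlings, fewer cells of a type and less RNA per cell cannot be told apart, and the part that seedling composition had in the differences below was not tested.

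With arabidopside A present in both genotypes, 17234 genes were tested and 5292 differed between *fer* and WT. Transcript levels of 2977 genes (17.3% of those tested) were increased in *fer* and those of 2315 (13.4%) were decreased. The increases were the larger ones. Among increased genes the median log2 fold change was 1.15, and 1765 were at 1 or more, 631 at 2 or more and 284 at 3 or more, whereas among decreased genes the median size was 0.811 and the corresponding counts were 729, 66 and 17. The median log2 fold change over all tested genes was -0.0014. All 4 *fer* libraries lay above all 4 WT libraries for 2982 genes (17.3%) and below them for 2724 (15.8%), and this held for 2595 of the increased (87.2%) and 2088 of the decreased genes (90.2%). Fewer genes were called from replicates 1 and 2 alone, 2908, than from replicates 3 and 4 alone, 4766.

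The *fer* libraries differed among themselves much more than the WT libraries did. Of the 2977 increased genes, 2108 were highest in *fer* replicate 4 and 2104 were lowest in *fer* replicate 1. Of the 2315 decreased genes, 1561 were highest in replicate 1 and 1370 lowest in replicate 4. The median SD on the log2(CPM + 1) scale over all tested genes was 0.205 in WT and 0.278 in *fer*, and it was 0.187 and 0.773 over the pattern-triggered immunity genes. The added 1 CPM narrows the spread of genes at a few CPM, as *FRK1*, *NHL10* and *WRKY46* of that list were in WT. Its part in the immunity values was not tested. Replicate 1 was also the *fer* library with the highest summed level of shoot markers. Library values are therefore given for most of the genes described.

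The 10 genes with the largest increases, among those at 20 CPM or more with no overlap between the groups, included several defence genes that WT seedlings barely expressed even with arabidopside A. *NATA1*, a jasmonate-induced acetyltransferase that modifies ornithine, was at 0.19, 0.80, 1.72 and 1.32 CPM in WT and 81.3, 96.9, 98.2 and 129 CPM in *fer*. All 4 *fer* libraries were high and close to each other (log2 fold change 6.64 ± 0.34 (SE), adjusted p = 6.26e-06). *WRKY62*, a WRKY transcription factor, was at 0.759, 0.533, 0.572 and 0 CPM in WT and 35, 55.8, 67.6 and 68.1 CPM in *fer*, with a similar evenness (log2 fold change 6.79 ± 0.39 (SE), adjusted p = 1.19e-05). *PDF1.3*, a defensin, was at 1.33, 0.80, 1.72 and 0.264 CPM in WT and 48.3, 103, 300.2 and 140.3 CPM in *fer* (log2 fold change 7.05 ± 0.76 (SE), adjusted p = 7.42e-04). The defensin genes are near-identical copies, so reads may have been divided among them. *ARD3*, an acireductone dioxygenase of methionine salvage, was at 0.379, 0.267, 0.382 and 0 CPM in WT and 17.6, 28.4, 31.5 and 167 CPM in *fer*, and the highest *fer* library lay apart from the other ones (log2 fold change 7.70 ± 1.23 (SE), adjusted p = 0.00328). *ABCG40*, an ABC transporter that imports abscisic acid (ABA), was at 4.55, 2.4, 3.63 and 3.17 CPM in WT and 36.1, 68.4, 159 and 392 CPM in *fer* (log2 fold change 5.54 ± 0.86 (SE), adjusted p = 0.00304). *CYP71A12*, *CYP71A13* and *PAD3*, which make camalexin, belong to the same 10 genes and are described with the salicylic acid and camalexin list, and the other members were AT2G45220, annotated as a pectin methylesterase inhibitor superfamily gene (log2 fold change 6.26), and AT1G26420, an FAD-binding berberine family gene (log2 fold change 5.50).

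Besides *FER*, the 10 genes with the largest decreases under the same limits (20 CPM or more, no overlap) included several cell wall genes. *XTH7*, which encodes a xyloglucan endotransglucosylase/hydrolase that cuts and rejoins wall xyloglucan, was at 586, 592, 568 and 464 CPM in WT and 95.2, 85.7, 34.2 and 40 CPM in *fer* (log2 fold change -3.11 ± 0.34 (SE), adjusted p = 4.74e-04). *XTH4*, of the same family, was at 268, 234, 297 and 196 CPM in WT and 53.3, 32.6, 19.5 and 13.9 CPM in *fer* (log2 fold change -3.06 ± 0.39 (SE), adjusted p = 0.00111). That the groups did not overlap was a condition of the choice, but for both genes the gap was wide, and *fer* replicates 3 and 4 were the lowest. *FLA13*, a fasciclin-like arabinogalactan protein, was at 995, 1100.1, 928 and 628 CPM in WT and 142, 166, 101 and 46.2 CPM in *fer* (log2 fold change -3.00 ± 0.38 (SE), adjusted p = 0.0011). *GASA1*, a small gibberellin-responsive cysteine-rich protein, was at 929, 769, 713 and 562 CPM in WT and 121, 121, 82 and 98.1 CPM in *fer*, with little spread in *fer* (log2 fold change -2.82 ± 0.18 (SE), adjusted p = 1.39e-05). *EXPA11*, an expansin that loosens walls, was at 41.7, 38.7, 40.1 and 40.4 CPM in WT and 10.6, 6.49, 3.63 and 2.55 CPM in *fer* (log2 fold change -2.79 ± 0.34 (SE), adjusted p = 5.43e-04), and *OCT3*, an organic cation transporter, at 28.6, 44.8, 44.1 and 33.8 CPM in WT and 5.99, 5.26, 6.23 and 2.55 CPM in *fer* (log2 fold change -2.91 ± 0.26 (SE), adjusted p = 6.52e-05). The other 4 genes were AT4G16563, an aspartyl protease family gene, AT1G06080, a delta 9 desaturase, AT4G18970, a GDSL-like lipase, and AT5G57760, with log2 fold changes of -2.88, -2.65, -2.51 and -2.48.

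**Figure D1:**
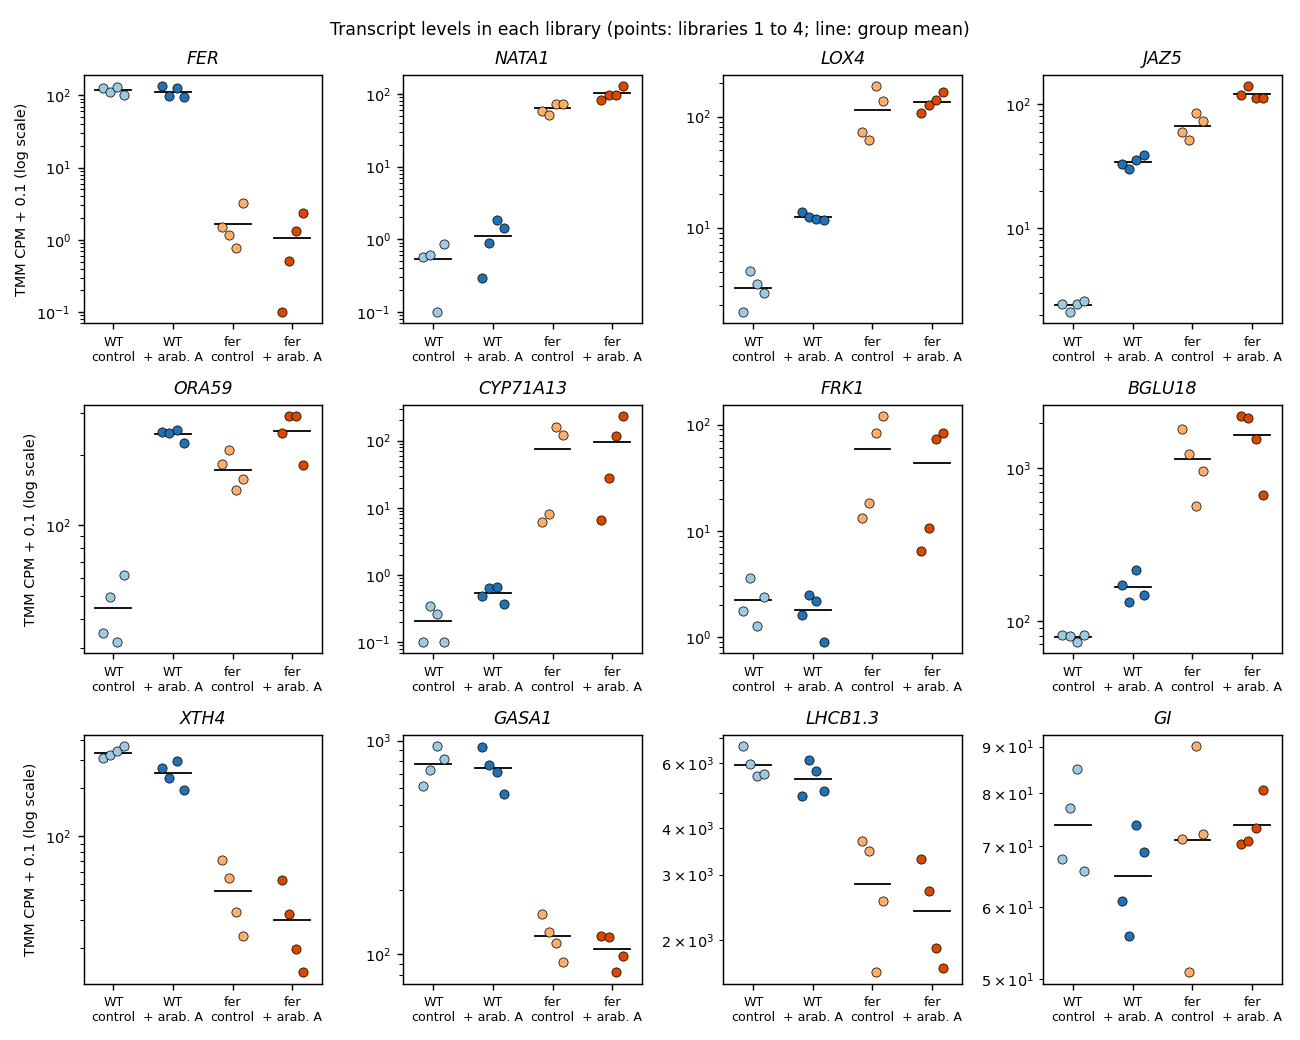
Transcript levels (TMM CPM + 0.1, log axis) of 12 genes in each of the 16 libraries, with points for libraries 1 to 4 and lines for group means, the arabidopside A and the control libraries having been scaled separately. *NATA1* and *XTH4* kept a wide gap between the genotypes with arabidopside A, *JAZ5* kept a smaller one, and *ORA59* overlapped, with 224 to 255 CPM in WT and 181 to 292 CPM in *fer*.

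Jasmonate biosynthesis genes remained higher in *fer*. Of 18 measured members 11 were increased with arabidopside A and 0 decreased, with a median log2 fold change of 0.97, against -0.0014 over all genes. *LOX4* and *LOX3*, lipoxygenases that open the pathway, were among the most even of these. *LOX4* was at 13.8, 12.3, 11.8 and 11.6 CPM in WT and 108, 128, 139.9 and 165 CPM in *fer*, so that its lowest *fer* library was well above its highest WT library (log2 fold change 3.44 ± 0.16 (SE), adjusted p = 2.42e-06). *LOX3* was at 14.6, 12, 11.6 and 6.86 CPM in WT and 64.7, 68.3, 76.8 and 72.6 CPM in *fer* (log2 fold change 2.63 ± 0.19 (SE), adjusted p = 1.91e-05). *AOC3*, an allene oxide cyclase, was at 78.9, 44.5, 73.1 and 67.8 CPM in WT and 267, 337, 423 and 253 CPM in *fer* (log2 fold change 2.27 ± 0.21 (SE), adjusted p = 9.51e-05). *LOX2*, the main leaf lipoxygenase, was at 157, 197, 215 and 214 CPM in WT and 993, 883, 555 and 428 CPM in *fer*, and replicates 3 and 4 were the lower *fer* libraries (log2 fold change 1.87 ± 0.25 (SE), adjusted p = 0.00102). *OPR3*, the OPDA reductase, was at 133, 127, 144 and 152 CPM in WT and 298, 320.1, 305 and 306 CPM in *fer*, with no overlap (log2 fold change 1.14 ± 0.10 (SE), adjusted p = 6.52e-05). *AOS*, which encodes the allene oxide synthase, was at 605, 608, 747 and 752 CPM in WT and 1419.5, 1139, 766 and 573 CPM in *fer*. The groups overlapped through *fer* replicate 4, and *AOS* did not pass the test (log2 fold change 0.52 ± 0.25 (SE), adjusted p = 0.141).

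Of the 25 lists, the *JAZ* repressor genes had the largest distance between their median differences with and without arabidopside A. Of 11 measured *JAZ* genes, 5 were increased in *fer* with arabidopside A and 0 decreased, with a median log2 fold change of 0.55. In the control seedlings 10 were increased, with a median of 2.61, where the background was 15.7% of 17001 genes called higher and 11.5% called lower. From replicates 3 and 4 alone, 2 *JAZ* genes passed the test with arabidopside A. *JAZ5* was at 33, 30.1, 35.7 and 38.5 CPM in WT and 118, 141, 112 and 112 CPM in *fer*, and its groups did not overlap (log2 fold change 1.81 ± 0.13 (SE), adjusted p = 1.85e-05). *JAZ8* was at 5.69, 7.2, 12 and 6.86 CPM in WT and 19.1, 23.9, 13.7 and 17.2 CPM in *fer*, again without overlap (log2 fold change 1.22 ± 0.26 (SE), adjusted p = 0.0053). *JAZ6* was at 73.2, 66.4, 84.1 and 61.7 CPM in WT and 128, 144, 98.9 and 92.8 CPM in *fer* (log2 fold change 0.70 ± 0.16 (SE), adjusted p = 0.00837). *JAZ1*, the most abundant of those named here, was at 1258, 1440.2, 1148 and 1213 CPM in WT and 1716, 1729, 1974 and 2329.7 CPM in *fer* (log2 fold change 0.62 ± 0.13 (SE), adjusted p = 0.0052). *JAZ3* was at 26.2, 26.1, 22.3 and 27.4 CPM in WT and 39.2, 33.3, 29.7 and 42.1 CPM in *fer* (log2 fold change 0.50 ± 0.15 (SE), adjusted p = 0.0245, and adjusted p up to 0.081 without WT replicate 1, 2 or 3). *JAZ9*, at 92.2, 96.2, 130.3 and 91 CPM in WT and 217, 183, 93.4 and 106 CPM in *fer*, did not pass the test, and *fer* replicates 3 and 4 lay within the WT range (log2 fold change 0.55 ± 0.26 (SE), adjusted p = 0.147). *JAZ2*, at 81.8, 99.7, 103 and 87.9 CPM in WT and 147, 126, 92.3 and 116 CPM in *fer*, did not pass either (log2 fold change 0.37 ± 0.15 (SE), adjusted p = 0.0805).

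Promoters are shown for 4 jasmonate-related genes whose genotype difference was smaller with arabidopside A, because MYC2 binds G-box elements, and for *WRKY62* and *FRK1*, which kept their difference, because WRKY factors bind W-boxes. They are examples not picked by a rule, and do not show how often a motif occurred. Among the promoters of all 20 genes called for such a smaller difference, described further below, 4 held a G-box. Each sequence is the 250 bases upstream of the annotated gene start, read from TAIR10.1 and written 5′ to 3′ on the strand of the gene. Capitals mark matches on either strand to the G-box (CACGTG), to a G-box variant (AACGTG) or to the W-box (TTGACC or TTGACT).
JAZ5 (chr1:5957512-5957761, minus strand): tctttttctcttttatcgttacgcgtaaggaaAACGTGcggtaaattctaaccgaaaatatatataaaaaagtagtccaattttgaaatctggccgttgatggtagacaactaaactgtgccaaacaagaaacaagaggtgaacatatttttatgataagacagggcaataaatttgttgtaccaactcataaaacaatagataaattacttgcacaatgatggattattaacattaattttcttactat
JAZ3 (chr3:6119457-6119706, plus strand): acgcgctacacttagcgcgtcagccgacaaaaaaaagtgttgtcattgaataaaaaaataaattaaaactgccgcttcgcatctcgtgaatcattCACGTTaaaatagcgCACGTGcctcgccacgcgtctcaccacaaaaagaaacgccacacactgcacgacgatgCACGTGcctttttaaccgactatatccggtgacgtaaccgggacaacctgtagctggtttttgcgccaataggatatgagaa
ORA59 (chr1:1882657-1882906, plus strand): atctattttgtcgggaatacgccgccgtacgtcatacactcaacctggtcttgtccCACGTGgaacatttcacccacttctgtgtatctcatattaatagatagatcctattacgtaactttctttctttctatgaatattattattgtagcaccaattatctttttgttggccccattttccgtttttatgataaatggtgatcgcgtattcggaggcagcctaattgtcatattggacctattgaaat
ERF2 (chr5:19172957-19173206, minus strand): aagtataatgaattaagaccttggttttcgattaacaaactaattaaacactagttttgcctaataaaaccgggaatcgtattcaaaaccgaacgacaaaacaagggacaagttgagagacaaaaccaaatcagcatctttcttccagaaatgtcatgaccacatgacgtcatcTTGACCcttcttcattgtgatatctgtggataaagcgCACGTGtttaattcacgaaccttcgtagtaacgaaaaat
WRKY62 (chr5:352096-352345, minus strand): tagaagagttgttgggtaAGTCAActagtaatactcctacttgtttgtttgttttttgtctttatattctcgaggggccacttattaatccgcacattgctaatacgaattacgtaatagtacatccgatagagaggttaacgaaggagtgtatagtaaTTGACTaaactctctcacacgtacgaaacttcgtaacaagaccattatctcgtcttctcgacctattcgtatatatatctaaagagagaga
FRK1 (chr2:8329945-8330194, minus strand): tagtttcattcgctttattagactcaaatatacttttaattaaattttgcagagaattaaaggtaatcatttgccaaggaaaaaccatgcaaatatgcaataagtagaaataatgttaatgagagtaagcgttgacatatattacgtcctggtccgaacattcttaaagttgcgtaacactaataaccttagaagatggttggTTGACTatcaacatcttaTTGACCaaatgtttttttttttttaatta

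The windows of *ORA59* and *ERF2* each held 1 G-box, that of *JAZ3* 2 G-boxes and 1 variant, and that of *JAZ5* 1 variant. Over the 17233 promoters with a window, 7.3% held a G-box, 7.6% the variant and 28.1% a W-box, with matches overlapping in 32 promoters. Among the 11 *JAZ* promoters 4 held a G-box (36.4%) and 4 the variant (36.4%), but the G-box was in 0 of the 14 jasmonate output and 0 of the 7 turnover promoters. Shares as high were found in lists with few or no called genes, 5 of 11 flavonoid (45.5%) and 5 of 12 clock promoters (41.7%). For genes increased in *fer* the shares were 7.8% for the G-box, 10.4% for the variant and 38.3% for the W-box, and for decreased genes 6.5%, 5.6% and 22.4%. Of the 24 pattern-triggered immunity promoters 13 held a W-box (54.2%), and of the 22 salicylic acid and camalexin promoters 3 did (13.6%). These are matches of letters in a window and not binding sites.

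Genes that remove jasmonates were partly increased. Of 7 measured turnover genes 4 were increased and 0 decreased, with a median log2 fold change of 0.80, and 1 was increased when only replicates 3 and 4 were used. *IAR3*, an amidohydrolase that cleaves jasmonoyl-isoleucine, was at 96, 101, 107 and 109 CPM in WT and 263, 338, 344 and 429.8 CPM in *fer* (log2 fold change 1.73 ± 0.15 (SE), adjusted p = 5.12e-05), and *ILL6*, of the same family, was at 23.3, 28.3, 29 and 30.9 CPM in WT and 57, 52.3, 45.7 and 46.6 CPM in *fer* (log2 fold change 0.86 ± 0.13 (SE), adjusted p = 0.00132). *JOX3*, a jasmonate oxidase, was at 40.8, 33.3, 47.5 and 54.6 CPM in WT and 73.6, 104, 66.4 and 108 CPM in *fer* (log2 fold change 1.00 ± 0.20 (SE), adjusted p = 0.00385). None of these groups overlapped. *CYP94B1*, which hydroxylates the hormone, was low, at 6.64, 5.86, 5.91 and 7.12 CPM in WT and 12, 13.6, 11.8 and 6.7 CPM in *fer*, and its groups overlapped (log2 fold change 0.80 ± 0.24 (SE), adjusted p = 0.0257, and adjusted p up to 0.0803 without WT replicate 1, 2, 3 or 4 or *fer* replicate 2 or 3). *ST2A*, a sulfotransferase of hydroxyjasmonate, was at 1332, 959, 1393 and 820.1 CPM in WT and 856, 1198, 956 and 552 CPM in *fer* and did not pass the test (log2 fold change -0.34 ± 0.24 (SE), adjusted p = 0.316).

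Of 13 measured transcription factor genes of the jasmonate and ethylene pathways, 7 were increased and 0 decreased, with a median log2 fold change of 0.53. The ethylene response factor *ERF13* was at 1.52, 0.533, 1.72 and 1.06 CPM in WT and 24, 23.4, 16.6 and 13.6 CPM in *fer* (log2 fold change 3.93 ± 0.32 (SE), adjusted p = 4.30e-05). *ERF6* was at 8.35, 5.6, 6.3 and 7.92 CPM in WT and 22.6, 30.7, 38.7 and 103 CPM in *fer*, highest in *fer* replicate 4 (log2 fold change 2.78 ± 0.50 (SE), adjusted p = 0.00426), and *ERF5* was at 19.4, 13.6, 19.1 and 20.1 CPM in WT and 28, 40.6, 59.7 and 74.6 CPM in *fer* (log2 fold change 1.49 ± 0.28 (SE), adjusted p = 0.00399). *JAM1*, a bHLH factor that opposes MYC2, was at 22, 20, 20 and 20.6 CPM in WT and 48.5, 40, 31.3 and 30.9 CPM in *fer* (log2 fold change 0.87 ± 0.17 (SE), adjusted p = 0.00341). *ERF2* was at 81.6, 90.6, 79.2 and 74.7 CPM in WT and 118, 133, 133 and 155 CPM in *fer*, without overlap (log2 fold change 0.72 ± 0.12 (SE), adjusted p = 0.0016). *ORA59*, which joins the jasmonate and ethylene signals at the defensin genes, was at 249.7, 247, 255 and 224 CPM in WT and 247, 292, 292 and 181 CPM in *fer*, and the groups were intermixed (log2 fold change 0.05 ± 0.15 (SE), adjusted p = 0.816). *MYC2* was at 124, 136, 126 and 119 CPM in WT and 208, 197, 144 and 193 CPM in *fer*, without overlap (log2 fold change 0.55 ± 0.13 (SE), adjusted p = 0.00872). *MYC2* overlaps a gene on the opposite strand, AT1G32630, over 3241 bp, and whether counting used strand is not given in the sources used here, so reads of the pair cannot be told apart.

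Jasmonate output genes had the largest median difference of the jasmonate lists with arabidopside A. All 14 were increased in *fer*, with a median log2 fold change of 3.03. In control seedlings all 14 were increased too, with a higher median of 4.52. The treated minus control difference was negative for 13 of the 14, and 2 were called for it. When genes had to reach 10 counts in every library, 8 of them passed, the others having been too low in WT to be tested. *TAT3*, a tyrosine aminotransferase, was at 40.6, 18.7, 25 and 32.2 CPM in WT and 213, 361, 391 and 271 CPM in *fer* (log2 fold change 3.40 ± 0.27 (SE), adjusted p = 6.57e-05). *CLH1*, a chlorophyllase, was at 188, 211, 230.3 and 216 CPM in WT and 686, 610.3, 341 and 276 CPM in *fer*, and the lowest *fer* library was above the highest WT library (log2 fold change 1.18 ± 0.27 (SE), adjusted p = 0.00987). *PDF1.2*, the defensin used as a marker of the ethylene and jasmonate branch, was at 2.66, 1.6, 5.15 and 1.06 CPM in WT and 26.7, 59.2, 98.6 and 66.8 CPM in *fer* (log2 fold change 4.50 ± 0.52 (SE), adjusted p = 7.34e-04). *THI2.1*, a thionin, was at 2.85, 2.4, 3.05 and 2.11 CPM in WT and 69.2, 58.5, 44.1 and 13.7 CPM in *fer*, and replicate 4 was the lowest *fer* library (log2 fold change 4.13 ± 0.51 (SE), adjusted p = 8.62e-04). The summed level of the 14 genes was 525 to 638 CPM in WT and 2461 to 3407 CPM in *fer*.

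All 18 genes of the oxylipin electrophile list, glutathione transferases, reductases and stress factors that OPDA and related compounds induce, were increased in *fer* although both genotypes had received the oxylipin-bearing lipid. Their median log2 fold change was 1.41. The increased count was 14 with limma-voom in place of edgeR and 14 without WT replicate 3. *GSTU4*, a glutathione transferase, was at 52.5, 42.4, 42.2 and 63.1 CPM in WT and 181, 280.3, 373 and 527 CPM in *fer* (log2 fold change 2.77 ± 0.31 (SE), adjusted p = 5.07e-04). *UGT74E2*, a glucosyltransferase of indole-3-butyric acid, was at 10.1, 6.13, 11.3 and 9.5 CPM in WT and 33.8, 94.9, 164 and 318 CPM in *fer* (log2 fold change 4.03 ± 0.68 (SE), adjusted p = 0.00406). *NIT4*, a nitrilase that detoxifies cyanoalanine, was at 15.2, 13.9, 20 and 13.2 CPM in WT and 47.5, 104, 246 and 484 CPM in *fer* (log2 fold change 3.81 ± 0.71 (SE), adjusted p = 0.00601). *ZAT12*, a zinc finger factor of oxidative stress, was at 6.07, 4.26, 6.3 and 5.28 CPM in WT and 19.1, 31.2, 42 and 198 CPM in *fer* (log2 fold change 3.70 ± 0.82 (SE), adjusted p = 0.012). Replicate 1 was the lowest and replicate 4 the highest *fer* library for these 4 genes, and over the list replicate 4 was highest for 15 and replicate 1 lowest for 15 of 18 members. The summed level was 2417 to 2768 CPM in WT and 3879 to 9601 CPM in *fer*.

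Salicylic acid and camalexin genes were nearly all increased. Of 22 measured members, out of 24 listed, 21 were increased and 0 decreased, with a median log2 fold change of 3.27. This was the largest median of the 25 lists, but it was below that of the jasmonate output genes without *fer* replicate 4 (2.79 against 2.96) and without WT replicate 1 (3.11 against 3.14). Camalexin is an indole phytoalexin made from tryptophan. *CYP71A13*, which commits indole-3-acetaldoxime to camalexin, was at 0.379, 0.533, 0.572 and 0.264 CPM in WT and 6.38, 27.9, 116 and 232 CPM in *fer*, where the WT values stand for 1 to 3 counts in each library (log2 fold change 7.70 ± 1.46 (SE), adjusted p = 0.00652). It overlaps a gene on the opposite strand over 572 bp. *CYP71A12*, its close paralogue, was at 1.9, 1.6, 3.24 and 1.85 CPM in WT and 27.4, 60.1, 188 and 588 CPM in *fer* (log2 fold change 6.61 ± 1.16 (SE), adjusted p = 0.00478), and *PAD3*, the last enzyme of the route, was at 2.85, 1.07, 3.43 and 1.85 CPM in WT and 43.1, 88.4, 169 and 269 CPM in *fer* (log2 fold change 5.88 ± 0.70 (SE), adjusted p = 0.0011). These 3 genes were among the 10 largest increases, for which no overlap between the genotypes was a condition. For each, replicate 1 was the lowest and replicate 4 the highest *fer* library. *PBS3*, which conjugates isochorismate to glutamate in salicylic acid synthesis, was at 0.759, 0, 0.191 and 0 CPM in WT and 15.3, 20.4, 29.4 and 52.9 CPM in *fer* (log2 fold change 6.66 ± 0.70 (SE), adjusted p = 3.34e-04). *NIMIN1*, whose protein binds the salicylic acid receptor NPR1, had 0 counts in the 4 WT libraries and a mean of 5.66 CPM in *fer*, at least 34.1-fold higher when 3 counts were set for the WT group (0.166 CPM). *NPR4*, a salicylic acid receptor, was the 1 member that did not pass the test, at 0.949, 1.87, 1.91 and 2.11 CPM in WT and 1.55, 2.24, 3.8 and 8.13 CPM in *fer* (log2 fold change 1.18 ± 0.54 (SE), adjusted p = 0.12). Replicate 4 was highest for 19 and replicate 1 lowest for 20 of the 22 genes. With limma-voom in place of edgeR 17 of the 22 were increased. When 10 counts in every library were required, 8 members were left and called, and their median was 1.46, against 2.76 for the 8 jasmonate output genes left. The other members were too low in WT to be tested in that way.

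Pattern-triggered immunity genes behaved likewise. Of 24 measured members 20 were increased and 0 decreased, with a median log2 fold change of 1.8. The increased count was 15 with limma-voom in place of edgeR, 15 from replicates 1 and 2 alone and 15 without *fer* replicate 3 or 4. Without *fer* replicate 1 it was 24 of 26 tested. *FRK1*, a receptor-like kinase gene used as a marker of flagellin responses, was at 1.52, 2.4, 2.1 and 0.792 CPM in WT and 6.38, 10.6, 72.3 and 84 CPM in *fer*, which divides the *fer* libraries into a lower and a higher pair (log2 fold change 4.64 ± 1.03 (SE), adjusted p = 0.0122, and adjusted p up to 0.0518 without *fer* replicate 4). *NHL10*, another early response marker, was at 1.71, 1.07, 1.34 and 2.37 CPM in WT and 2.7, 5.7, 26.6 and 82.6 CPM in *fer* (log2 fold change 4.16 ± 1.19 (SE), adjusted p = 0.0321, and adjusted p up to 0.0775 without WT replicate 1, 2, 3 or 4 or *fer* replicate 3 or 4). *WRKY46* was at 3.41, 1.6, 2.86 and 3.69 CPM in WT and 33.8, 62.8, 83.9 and 122 CPM in *fer* (log2 fold change 4.69 ± 0.44 (SE), adjusted p = 2.31e-04), and *WRKY51* at 2.09, 2.4, 1.91 and 2.64 CPM in WT and 21.4, 33.8, 36.1 and 100.3 CPM in *fer* (log2 fold change 4.41 ± 0.56 (SE), adjusted p = 0.00106). *WRKY18*, a WRKY factor that restrains defence together with its paralogues, was at 135, 122, 116 and 101 CPM in WT and 93.3, 131, 98.6 and 99.2 CPM in *fer* and did not pass the test (log2 fold change -0.16 ± 0.14 (SE), adjusted p = 0.403). Replicate 4 was highest for 18 and replicate 1 lowest for 22 of 24 genes, and the summed level was 498 to 560 CPM in WT and 770.2 to 2173 CPM in *fer*. Of the 28 shoot markers 27 were highest in *fer* replicate 1, and 16 were lowest in replicate 3 and 12 in replicate 4. The part of that spread in these results was not tested.

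**Figure D2:**
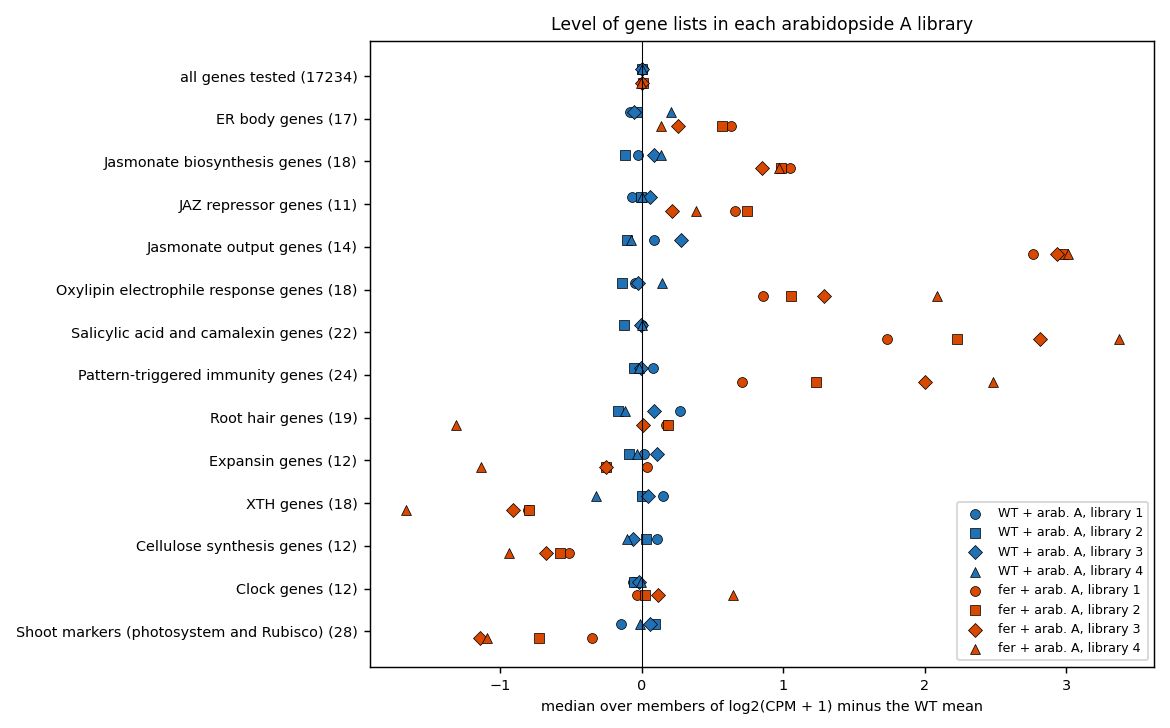
Median over the members of 13 gene lists, and over all tested genes, of log2(CPM + 1) minus the mean of the 4 WT libraries (x axis), in each of the 8 arabidopside A libraries (blue WT, orange *fer*, marker shapes for libraries 1 to 4; numbers of genes in parentheses). The WT medians stay near 0, whereas the *fer* medians run from 0.711 to 2.48 for the immunity list and only from 2.76 to 3.01 for the jasmonate output list, whose single genes had a median SD of 0.669 within *fer*.

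ER bodies are endoplasmic reticulum compartments of Brassicaceae that store β-glucosidases, which cleave indolic glucosinolates on damage. The ER body and the indolic and shared glucosinolate lists were taken from the study of these seedlings' genotype, so their direction is not independent evidence. Of 17 ER body genes 8 were increased with arabidopside A and 0 decreased, with a median log2 fold change of 0.36. The count was fragile: it was 3, 4 and 3 without WT replicates 1, 2 and 3, 5 with upper quartile scaling and 2 when only replicates 3 and 4 were used. It rose to 12 without *fer* replicate 4 and to 11 when only replicates 1 and 2 were used. In control seedlings 12 of the 17 were increased, with a median of 0.83. *BGLU18*, a β-glucosidase of inducible leaf ER bodies, had the largest difference, at 172, 134, 215 and 149 CPM in WT and 2207, 2153, 1558 and 665 CPM in *fer* (log2 fold change 3.30 ± 0.37 (SE), adjusted p = 6.57e-04). *BGLU21* was at 169, 129, 140.2 and 221 CPM in WT and 443, 346, 296 and 182 CPM in *fer* (log2 fold change 0.94 ± 0.26 (SE), adjusted p = 0.0226, and adjusted p up to 0.0715 without WT replicate 1, 2 or 3). *BGLU22* was at 307, 266, 248 and 375 CPM in WT and 739.9, 553, 495 and 404 CPM in *fer* (log2 fold change 0.87 ± 0.19 (SE), adjusted p = 0.00655). *GLL22*, a GDSL lipase-like partner of the β-glucosidase complex, was at 90.1, 78.4, 77.7 and 106 CPM in WT and 192, 191, 179 and 131 CPM in *fer* (log2 fold change 0.98 ± 0.15 (SE), adjusted p = 0.00129). *BGLU23* (PYK10), the main root ER body enzyme, was at 2008, 2283, 2141 and 2555 CPM in WT and 2993, 2378, 2439 and 1838 CPM in *fer*, overlapped between the genotypes and did not pass the test (log2 fold change 0.10 ± 0.15 (SE), adjusted p = 0.638). *BGLU21*, *BGLU22* and *BGLU23* are close paralogues, so reads shared by them are uncertain. Within *fer*, replicate 1 was highest for 14 and replicate 4 lowest for 14 of the 17 genes, and the shoot markers too were mostly highest in replicate 1.

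Glucosinolates are sulfur-rich defence compounds made from tryptophan (indolic) or methionine (aliphatic). Of 14 indolic genes 11 were increased and 0 decreased, with a median log2 fold change of 0.84. *CYP81F2*, which hydroxylates the indole ring, was at 29.2, 16.5, 27.1 and 14.8 CPM in WT and 64.9, 144, 261 and 381 CPM in *fer* (log2 fold change 3.26 ± 0.55 (SE), adjusted p = 0.00412). The tryptophan genes *TSB1* and *ASA1* were at 105 to 124 CPM in WT and 227 to 593 CPM in *fer* (log2 fold change 1.72 ± 0.26 (SE), adjusted p = 0.00142) and at 110.2 to 129.8 CPM in WT and 188 to 626 CPM in *fer* (log2 fold change 1.55 ± 0.32 (SE), adjusted p = 0.00755). *ASA1* overlaps an opposite-strand gene over 201 bp. *CYP79B2*, which turns tryptophan into the aldoxime that glucosinolates and camalexin share, was at 140.4, 139.9, 184 and 176 CPM in WT and 261, 256, 359.7 and 666 CPM in *fer* (log2 fold change 1.27 ± 0.30 (SE), adjusted p = 0.012), and *UGT74B1*, a thiohydroximate glucosyltransferase, at 227, 242, 239 and 254 CPM in WT and 256, 247, 303 and 412 CPM in *fer*, not passing the test (log2 fold change 0.34 ± 0.16 (SE), adjusted p = 0.125).

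Of 10 genes shared by both glucosinolate branches 8 were increased, with a median log2 fold change of 0.56. The count was 4 without WT replicate 2, 4 without WT replicate 3, and 5 from replicates 3 and 4 alone. *GGP1*, a peptidase that trims the glutathione conjugate, was at 271, 274, 288 and 321 CPM in WT and 524, 657, 716 and 982 CPM in *fer* (log2 fold change 1.32 ± 0.17 (SE), adjusted p = 5.50e-04). *GSH1*, which makes γ-glutamylcysteine, was at 443 to 506 CPM in WT and 628 to 1269 CPM in *fer* (log2 fold change 0.92 ± 0.19 (SE), adjusted p = 0.00443). *MYC3*, a bHLH factor related to MYC2, was at 46.5, 45.3, 45.2 and 42.5 CPM in WT and 62.4, 64.9, 72.6 and 89.6 CPM in *fer* (log2 fold change 0.69 ± 0.13 (SE), adjusted p = 0.00368). *SOT16*, a sulfotransferase, was at 593 to 786 CPM in WT and 830.1 to 1315 CPM in *fer* (log2 fold change 0.62 ± 0.16 (SE), adjusted p = 0.015, and adjusted p up to 0.059 without WT replicate 2 or 3). *SUR1*, the C-S lyase, was at 80.8, 80.2, 87.4 and 72.8 CPM in WT and 84.8, 87.9, 87.3 and 111 CPM in *fer* and did not pass the test (log2 fold change 0.21 ± 0.12 (SE), adjusted p = 0.221). The aliphatic list differed little, with a median of 0.01 against 0.61 in control seedlings. Of its 15 genes 2 were increased, a share below the 17.3% of all genes, and 0 decreased. The pair were *MAM3*, a chain-elongation synthase at 36.3 to 46.4 CPM in WT and 55.7 to 86.2 CPM in *fer* (log2 fold change 0.77 ± 0.15 (SE), adjusted p = 0.00414), and *SOT17*, a sulfotransferase at 136 to 151 CPM in WT and 168 to 265 CPM in *fer* (log2 fold change 0.51 ± 0.15 (SE), adjusted p = 0.0272, and adjusted p up to 0.0847 without WT replicate 1, 2, 3 or 4 or *fer* replicate 3). *BCAT3*, an aminotransferase, was at 229.5 to 249 CPM in WT and 141 to 238 CPM in *fer* and did not pass (log2 fold change -0.31 ± 0.15 (SE), adjusted p = 0.135).

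Of the 15 measured members of the FER module list, genes that act with FER, 6 were decreased (*FER* among them) and 2 increased, beside 13.4% and 17.3% of all genes. The increased count was thus no higher than over all genes, and it was 1 without WT replicate 2, 3 or 4 or *fer* replicate 3. *RALF23*, a peptide ligand of FER in immune signalling, was at 59, 69, 56.7 and 48.6 CPM in WT and 24.3, 24.3, 14.7 and 12 CPM in *fer* (log2 fold change -1.62 ± 0.23 (SE), adjusted p = 8.81e-04), and *HERK2*, a receptor kinase related to FER, was at 11.4, 16.3, 14.3 and 11.9 CPM in WT and 6.57, 5.78, 4.84 and 3.99 CPM in *fer* (log2 fold change -1.33 ± 0.21 (SE), adjusted p = 0.00141). In neither gene did the groups overlap. *RIPK*, a cytoplasmic kinase that works with FER in root hairs, was at 20.9, 16, 9.73 and 11.6 CPM in WT and 22.8, 31.6, 57.9 and 138 CPM in *fer* and highest in *fer* replicate 4 (log2 fold change 2.09 ± 0.59 (SE), adjusted p = 0.0301, and adjusted p up to 0.0729 without WT replicate 2, 3 or 4 or *fer* replicate 3). *LRX3*, a leucine-rich repeat extensin that binds RALF peptides, was at 808, 725, 668 and 635 CPM in WT and 519, 626, 740.3 and 736 CPM in *fer* and did not pass the test (log2 fold change -0.11 ± 0.14 (SE), adjusted p = 0.565). Of 19 measured root hair genes 2 were increased and 0 decreased. They were *RHD2*, the NADPH oxidase of root hair tips, at 12.5, 7.73, 5.34 and 6.33 CPM in WT and 13.5, 16.8, 20.9 and 22.6 CPM in *fer* (log2 fold change 1.2 ± 0.27 (SE), adjusted p = 0.00758), and *RSL2*, a bHLH factor of hair growth, at 1.33, 1.07, 1.34 and 0.528 CPM in WT and 2.12, 2.05, 2.94 and 2.71 CPM in *fer* (log2 fold change 1.13 ± 0.37 (SE), adjusted p = 0.0385, and adjusted p up to 0.0947 without WT replicate 1, 2, 3 or 4 or *fer* replicate 2, 3 or 4). Of the 19 genes 16 were lowest in *fer* replicate 4. The share of increased root hair genes was below the 17.3% of all genes, and the median log2 fold change of the list was -0.16. In control seedlings 8 of 16 tested root hair genes were decreased in *fer* and 1 increased, with a median of -0.62. None of the root hair genes was called by the test of the difference between both genotype contrasts.

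Of 18 measured XTH genes, which remodel wall xyloglucan, 9 were decreased and 3 increased, with a median log2 fold change of -0.91. Over all genes 13.4% were decreased and 17.3% increased, so the increased share was near that of all genes. Without *fer* replicate 1 the increased count was 6, and without *fer* replicate 3 or WT replicate 2 or 3 it was 1. Besides *XTH4* and *XTH7*, *XTH33* was at 10.6, 8.53, 8.59 and 5.01 CPM in WT and 0.386, 1.79, 1.21 and 0 CPM in *fer* (log2 fold change -2.95 ± 0.54 (SE), adjusted p = 0.00326). *XTH15* was at 28.1, 42.1, 28.2 and 18.5 CPM in WT and 7.53, 7.94, 5.53 and 1.59 CPM in *fer* (log2 fold change -2.33 ± 0.41 (SE), adjusted p = 0.00312) and *XTH17* at 24.3, 17.3, 23.3 and 13.5 CPM in WT and 7.34, 3.58, 5.71 and 0.957 CPM in *fer* (log2 fold change -2.21 ± 0.44 (SE), adjusted p = 0.00512). *XTH15* overlaps an opposite-strand gene over 382 bp. *XTH24*, at 341, 262, 273 and 214 CPM in WT and 196, 327, 343 and 495 CPM in *fer*, did not pass the test (log2 fold change 0.32 ± 0.25 (SE), adjusted p = 0.362). Of 12 expansin genes 4 were decreased and 1 increased, beside 13.4% and 17.3% of all genes, and 3 were increased without *fer* replicate 4. *EXPA3* was at 114, 104, 128 and 106 CPM in WT and 51.8, 32, 15.7 and 8.77 CPM in *fer* (log2 fold change -2.06 ± 0.47 (SE), adjusted p = 0.0121), *EXPA8* at 8.54, 6.13, 5.34 and 8.71 CPM in WT and 4.44, 3.21, 1.04 and 2.23 CPM in *fer* (log2 fold change -1.37 ± 0.36 (SE), adjusted p = 0.0155). The increased *EXPA10* was at 19.9, 18.4, 23.1 and 22.2 CPM in WT and 59.5, 64.1, 54.8 and 48.5 CPM in *fer* (log2 fold change 1.44 ± 0.14 (SE), adjusted p = 8.71e-05). The most abundant expansin gene named, *EXPA1*, was at 249, 234, 256 and 236 CPM in WT and 276, 319.9, 294 and 271 CPM in *fer* and did not pass (log2 fold change 0.25 ± 0.10 (SE), adjusted p = 0.0819).

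Cellulose synthesis genes fell together: 9 of 12 were decreased and 0 increased, with a median log2 fold change of -0.67. *CTL1*, a chitinase-like protein needed for cellulose assembly, was at 1154, 1131, 1045 and 989 CPM in WT and 668, 579, 514 and 386 CPM in *fer* (log2 fold change -1.01 ± 0.16 (SE), adjusted p = 0.00126). *COB*, the GPI-anchored COBRA protein that orients microfibrils, was at 246, 183, 245 and 155 CPM in WT and 143, 119, 109.6 and 83.1 CPM in *fer* (log2 fold change -0.87 ± 0.19 (SE), adjusted p = 0.00692). The primary wall synthase subunits *CESA5* and *CESA1* were at 228 to 273 CPM in WT and 109.6 to 170.2 CPM in *fer* (log2 fold change -0.82 ± 0.15 (SE), adjusted p = 0.00238) and 255 to 287 CPM in WT and 127 to 179.7 CPM in *fer* (log2 fold change -0.76 ± 0.13 (SE), adjusted p = 0.00167), each without overlap. *CESA4*, a secondary wall subunit, was at 15.4, 12.5, 10.7 and 17.9 CPM in WT and 14.9, 11.9, 12.8 and 8.13 CPM in *fer* and did not pass the test (log2 fold change -0.24 ± 0.22 (SE), adjusted p = 0.442).

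Touch and calmodulin-like genes were increased in 8 of 12 cases and decreased in 0, with a median log2 fold change of 1.46. *CML12* (TCH3), a touch-induced calcium sensor, was at 328, 234, 291 and 275 CPM in WT and 814, 1490.4, 1870.3 and 1908 CPM in *fer* (log2 fold change 2.43 ± 0.25 (SE), adjusted p = 2.54e-04). *CML12* and *CML24* overlap opposite-strand genes, over 342 and 827 bp and over 723 bp. *CML38* was at 27.5, 18.1, 21.8 and 18.2 CPM in WT and 92.1, 123, 138 and 497 CPM in *fer* (log2 fold change 3.30 ± 0.58 (SE), adjusted p = 0.00488). *CML37* was at 1.9, 1.33, 2.1 and 2.64 CPM in WT and 6.95, 7.86, 13.8 and 33.8 CPM in *fer* (log2 fold change 2.94 ± 0.58 (SE), adjusted p = 0.0055) and *CML43* at 2.85, 1.87, 3.24 and 5.54 CPM in WT and 9.66, 12.6, 12.6 and 15 CPM in *fer* (log2 fold change 1.90 ± 0.29 (SE), adjusted p = 0.00113), all with every *fer* library above the WT libraries. *CML24* (TCH2) was at 81, 75.2, 79 and 70.2 CPM in WT and 72.8, 91.6, 110.3 and 62 CPM in *fer* and did not pass the test (log2 fold change 0.14 ± 0.17 (SE), adjusted p = 0.554).

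Of 30 ABA and dehydration genes 8 were increased and 4 decreased, and the decreased share was near the 13.4% of all genes. Without WT replicate 2 the count of increased genes was 5, and from replicates 1 and 2 alone it was 4. *RD29A*, a dehydration-induced gene, was decreased, at 212, 294, 229 and 228 CPM in WT and 113, 57.5, 39.4 and 37.2 CPM in *fer* (log2 fold change -1.97 ± 0.34 (SE), adjusted p = 0.00354), whereas *NCED3*, the dioxygenase that limits ABA synthesis, was increased, at 3.6, 1.87, 5.34 and 3.69 CPM in WT and 6.95, 14.1, 14.5 and 13.7 CPM in *fer* (log2 fold change 1.74 ± 0.32 (SE), adjusted p = 0.00271). Of the ABA hydroxylases that inactivate the hormone, *CYP707A3* was increased, at 3.98, 3.47, 3.43 and 1.58 CPM in WT and 5.02, 8.46, 15.2 and 14.8 CPM in *fer* (log2 fold change 1.77 ± 0.39 (SE), adjusted p = 0.00675), and *CYP707A2* decreased, at 5.31, 8.8, 5.34 and 4.75 CPM in WT and 0.58, 1.08, 1.9 and 1.12 CPM in *fer* (log2 fold change -2.36 ± 0.36 (SE), adjusted p = 0.00117). *KIN2*, a cold- and ABA-induced gene, was at 1157, 1438, 1497 and 1474 CPM in WT and 1424, 1283, 1278 and 898 CPM in *fer* and did not pass (log2 fold change -0.19 ± 0.15 (SE), adjusted p = 0.367). Of 12 auxin and brassinosteroid genes 3 were increased and 3 decreased, beside 17.3% and 13.4% of all genes. The increased count was 1 without WT replicate 2 or 4 or without *fer* replicate 2 or 3, and 5 without *fer* replicate 4. The auxin repressor gene *IAA2* was at 227, 224, 191 and 165 CPM in WT and 347, 508, 493 and 553 CPM in *fer* (log2 fold change 1.24 ± 0.16 (SE), adjusted p = 5.46e-04). *IAA1* was at 32.4, 20.8, 23.3 and 27.4 CPM in WT and 51.6, 56.5, 56 and 23.4 CPM in *fer* (log2 fold change 0.85 ± 0.26 (SE), adjusted p = 0.0339, and adjusted p up to 0.103 without WT replicate 2, 3 or 4 or *fer* replicate 1, 2 or 3), *IAA7* at 334, 367, 311 and 274 CPM in WT and 200.3, 206, 181 and 129.7 CPM in *fer* (log2 fold change -0.84 ± 0.16 (SE), adjusted p = 0.00293) and *IAA3*, which overlaps an opposite-strand gene over 640 bp, at 12, 16.8, 13.4 and 12.1 CPM in WT and 8.5, 6.71, 2.59 and 0.957 CPM in *fer* (log2 fold change -1.48 ± 0.48 (SE), adjusted p = 0.0406, and adjusted p up to 0.101 without WT replicate 1, 2, 3 or 4 or *fer* replicate 3).

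Of 11 flavonoid genes 2 were increased and 0 decreased, and the increased share was near the 17.3% of all genes. The increased ones were the anthocyanin enzyme genes *DFR* and *LDOX*. *DFR* was at 5.12, 4.0, 3.82 and 7.12 CPM in WT and 18, 11.4, 7.09 and 7.5 CPM in *fer* (log2 fold change 1.13 ± 0.33 (SE), adjusted p = 0.0245, and adjusted p up to 0.0818 without WT replicate 1, 2 or 3 or *fer* replicate 2). *LDOX* was at 8.16, 5.33, 5.53 and 2.9 CPM in WT and 18.4, 12.4, 7.78 and 7.18 CPM in *fer* (log2 fold change 1.03 ± 0.36 (SE), adjusted p = 0.0484, and adjusted p up to 0.124 without WT replicate 2, 3 or 4 or *fer* replicate 1 or 2). Within the list, 0 passed without WT replicate 2 or 3 or without *fer* replicate 2. *CHS*, the entry enzyme, was at 76.5, 72.5, 86.4 and 76.8 CPM in WT and 111, 91.8, 86.8 and 52.8 CPM in *fer* and did not pass (log2 fold change 0.13 ± 0.19 (SE), adjusted p = 0.633). Of 16 heat shock and ER chaperone genes 6 were increased and 1 decreased, beside 17.3% and 13.4% of all genes. The increased count was 3 without WT replicate 1 or without *fer* replicate 3. *HSP90.1*, a cytosolic chaperone, was at 294, 306, 269.6 and 337 CPM in WT and 517, 547, 738 and 764 CPM in *fer* (log2 fold change 1.09 ± 0.15 (SE), adjusted p = 6.77e-04), *BIP2*, the lumenal binding protein, at 387 to 394 CPM in WT and 451 to 674 CPM in *fer* (log2 fold change 0.55 ± 0.14 (SE), adjusted p = 0.014), and *HSP17.6II*, a small heat shock protein, at 38.1 to 59.6 CPM in WT and 23.3 to 30 CPM in *fer*, lower in *fer* (log2 fold change -0.87 ± 0.15 (SE), adjusted p = 0.0024). Of 12 clock genes 0 passed the edgeR test in either direction. *GI* was at 60.9, 55.7, 73.7 and 68.9 CPM in WT and 70.3, 70.8, 73.2 and 80.5 CPM in *fer* (log2 fold change 0.18 ± 0.12 (SE), adjusted p = 0.266) and *TOC1* at 56.7, 52.8, 56.5 and 64.4 CPM in WT and 57, 54.3, 73 and 116 CPM in *fer* (log2 fold change 0.38 ± 0.22 (SE), adjusted p = 0.22), and all 12 were highest in *fer* replicate 4.

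Of the 28 shoot markers 22 were decreased and 0 increased, with a median log2 fold change of -0.80. *LHCB1.3*, a light-harvesting protein, was at 4902, 6138, 5715 and 5034 CPM in WT and 3298, 2707, 1905 and 1677 CPM in *fer* (log2 fold change -1.18 ± 0.20 (SE), adjusted p = 0.00198), and *RBCS2B*, a small subunit of Rubisco, at 655, 624, 738 and 688 CPM in WT and 372, 327, 189 and 154 CPM in *fer* (log2 fold change -1.38 ± 0.26 (SE), adjusted p = 0.004). *PSBP1*, of the oxygen-evolving complex, was at 532, 686, 623 and 646 CPM in WT and 429, 309, 189.5 and 206 CPM in *fer* (log2 fold change -1.13 ± 0.24 (SE), adjusted p = 0.00657). The light-harvesting and Rubisco genes are families of near-identical copies. *LHCB3* was at 659, 691, 846 and 746 CPM in WT and 878, 727, 473 and 512 CPM in *fer* and did not pass (log2 fold change -0.18 ± 0.19 (SE), adjusted p = 0.493). Of 11 root markers 4 were increased and 0 decreased, among them the Casparian strip regulator *MYB36* at 5.69, 3.73, 6.11 and 9.24 CPM in WT and 10.4, 13.8, 10.7 and 17.7 CPM in *fer* (log2 fold change 1.1 ± 0.27 (SE), adjusted p = 0.0118) and the auxin exporter *PIN2* at 8.73, 5.06, 8.2 and 7.12 CPM in WT and 16.6, 11.8, 10.4 and 10.2 CPM in *fer* (log2 fold change 0.73 ± 0.23 (SE), adjusted p = 0.0338, and adjusted p up to 0.0966 without WT replicate 2, 3 or 4 or *fer* replicate 1 or 2). The median over the root markers was 0.29, and of all genes 17.3% were increased. The root count was 1 without WT replicate 2, 3 or 4, 2 without *fer* replicate 2 or 3, and 0 from replicates 3 and 4 alone, where 1 root marker was decreased.

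**Figure D3:**
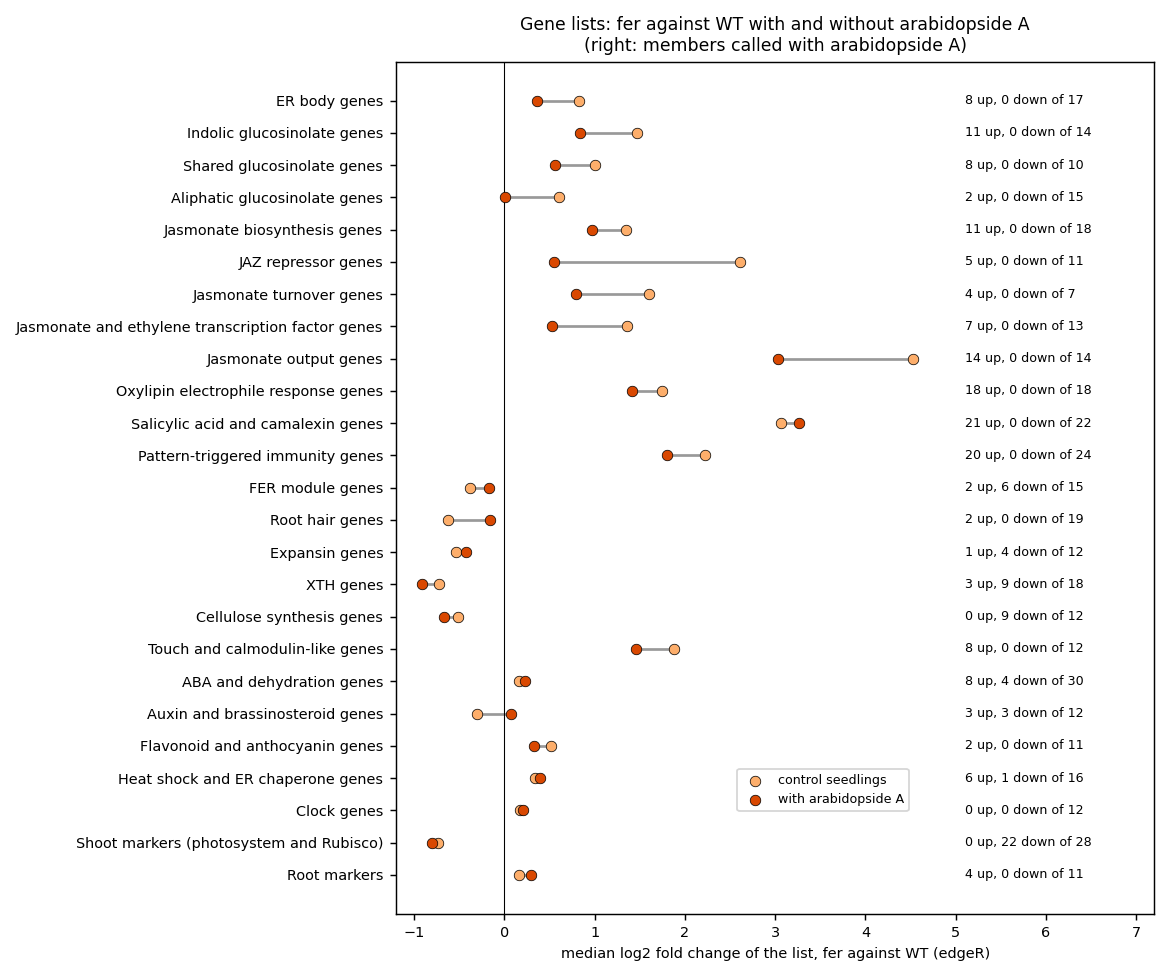
Median log2 fold change of *fer* against WT (edgeR, x axis) over the tested members of 25 gene lists, in control seedlings (light) and with arabidopside A (dark), with the numbers of members called higher and lower with arabidopside A at the right. The medians are close for the salicylic acid and camalexin list (3.27 and 3.06) and farthest apart for the *JAZ* list (0.55 and 2.61).

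The treated difference was then set beside that of the control seedlings, which share no library with it. Same-numbered *fer* libraries of the control and arabidopside A groups nevertheless deviated together from their group means, with correlations over genes of 0.61, 0.366, 0.186 and 0.374 for replicates 1 to 4, so that the comparisons are not fully separate on the *fer* side. In control seedlings 4620 of 17001 genes differed between the genotypes. Of the 2977 genes increased in *fer* with arabidopside A, 2061 were increased in the control seedlings too (69.2% of the treated and 77.5% of the control list), and of the 2315 decreased genes 1303 were decreased in both (56.3% and 66.5%). In 0 genes did the calls point in opposite directions. Of the 811 increased and 994 decreased genes that were tested but not called in the control seedlings, 758 and 947 had the same sign there. For genes increased in both, the median log2 fold change was 1.33 with arabidopside A and 1.52 without. In a fit of all 16 libraries, 1426 of these 2061 (69.2%) had a negative treated minus control difference, so a smaller increase. The median of that difference over all tested genes was -0.0336. For genes decreased in both, the median sizes were 0.879 and 0.878. Of these, 595 of 1303 (45.7%) had a positive treated minus control difference, so a smaller decrease.

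A test of the difference between both genotype contrasts, over all 16 libraries, called 20 of 18132 genes, all with a smaller *fer* excess under arabidopside A (0.11%), and 0 with a larger one. At an unadjusted p under 0.05 the same edgeR test gave 556 genes with a negative and 333 with a positive treated minus control difference. Together they were about 1 in 20 of the genes tested, the share that this threshold gives when no gene differs. When libraries of a genotype with the same number were blocked as pairs, 53 genes were called, 52 with a negative and 1 with a positive difference, and all 20 were among them. Without WT control replicate 3 the test without a block called 13 genes, and *TAT3*, *JAZ3*, *PGIP2*, *NRT1.8*, *RAP2.9*, *CB5-C* and AT1G59950 missed the threshold when single libraries were left out (7 genes, adjusted p up to 0.174). All 20 were higher in *fer* than in WT in control seedlings, and with arabidopside A 16 remained significantly higher and 4 did not. From control to arabidopside A, all 20 were called as raised in WT, and 7 were in *fer*. Of the 20, 9 were jasmonate genes of the lists used here: *JAZ1*, *JAZ3*, *JAZ5*, *JAZ6*, *OPR3*, *OPCL1*, *MYC2*, *TAT3* and *CLH1*, and 2 were the ethylene response factor genes *ERF2* and *ORA59*. Among the 20 promoters 4 held a G-box (20%), 7 the variant (35%) and 7 a W-box (35%), beside 7.3%, 7.6% and 28.1% of all promoters.

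*JAZ5* and *ERF2* had the smallest adjusted p values for this difference. In control seedlings *JAZ5* was at 2.34, 2.0, 2.33 and 2.46 CPM in WT and 59.4, 51.5, 84.8 and 73.2 CPM in *fer*, scaled apart from the treated libraries, against 33, 30.1, 35.7 and 38.5 CPM in WT and 118, 141, 112 and 112 CPM in *fer* with arabidopside A. The *fer* excess was 4.86 in control and 1.81 in treated seedlings on the log2 scale (difference -3.07 ± 0.23 (SE), adjusted p = 1.71e-06). WT rose by 3.94 with arabidopside A and *fer* by 0.87. *ERF2* was at 18.8, 21.5, 17.6 and 18 CPM in WT and 118, 154, 158 and 168 CPM in *fer* in control seedlings, and its excess went from 2.98 to 0.72 (difference -2.28 ± 0.18 (SE), adjusted p = 1.71e-06). *ORA59* was at 34.7, 49.5, 31.8 and 61.2 CPM in WT and 182, 209, 142 and 157 CPM in *fer* in control seedlings, where the groups did not overlap, and its excess went from 1.96 to 0.05 (difference -1.93 ± 0.28 (SE), adjusted p = 0.00377). *JAZ6* and *JAZ1* went from 2.61 to 0.70 (difference -1.93 ± 0.25 (SE), adjusted p = 9.25e-04) and from 2.59 to 0.62 (difference -1.99 ± 0.25 (SE), adjusted p = 9.25e-04).

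Among the genes in none of the lists, AT4G24350, a phosphorylase superfamily gene, went from an excess of 3.13 to 0.43 (difference -2.72 ± 0.27 (SE), adjusted p = 6.01e-05). It overlaps an opposite-strand gene over 330 bp. With arabidopside A it was at 258, 263, 295 and 293 CPM in WT and 417, 461, 377 and 243 CPM in *fer*, where the groups overlapped. AT3G23550, a MATE efflux family gene, was at 99.6, 84.2, 101 and 115 CPM in WT and 188, 243, 247 and 237 CPM in *fer* (difference -2.53 ± 0.27 (SE), adjusted p = 9.96e-05), and AT5G61160, an acyltransferase gene, was at 265, 175, 259 and 271 CPM in WT and 415, 615, 652 and 483 CPM in *fer* (difference -2.38 ± 0.28 (SE), adjusted p = 4.50e-04). *FAMT*, a farnesoic acid methyltransferase, had the largest change in excess, from 5.64 to 2.28, and was at 72.5, 49.3, 99.8 and 104 CPM in WT and 380.2, 483, 468 and 254 CPM in *fer* with arabidopside A (difference -3.38 ± 0.47 (SE), adjusted p = 0.00377). Of the genes in the lists, *OPR3*, *OPCL1* (an acyl-CoA ligase of jasmonate synthesis) and *MYC2* changed by -1.09, -1.45 and -1.36. *TAT3* and *CLH1* kept a large or moderate excess, 3.40 and 1.18, after changes of -2.70 and -2.51. *PGIP2*, a polygalacturonase inhibitor at 20.1 to 23.2 CPM in WT and 13.7 to 29.2 CPM in *fer* with arabidopside A, and *NRT1.8*, a nitrate transporter at 176 to 255 CPM in WT and 234 to 346 CPM in *fer*, overlapped there and did not pass in the treated comparison.

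**Figure D4:**
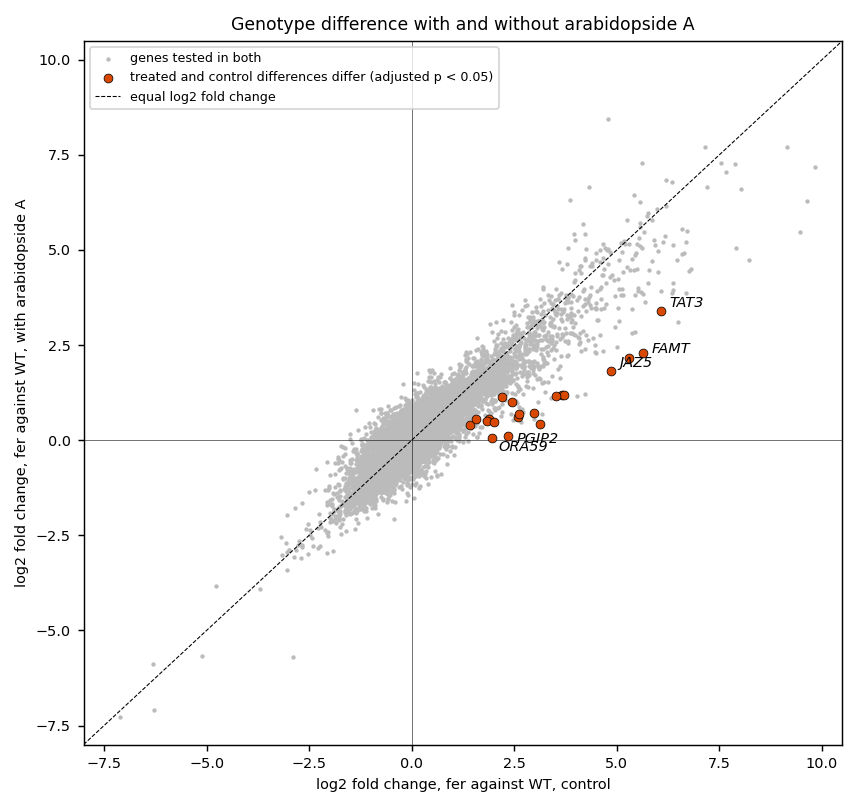
Log2 fold change of *fer* against WT in control seedlings (x axis) and with arabidopside A (y axis) for each gene tested in both, with the line of equal values and, in orange, the 20 genes whose differences differed at an adjusted p under 0.05. All 20 lie below the line on the side of higher levels in *fer*, with *TAT3* at 6.08 and 3.40 and *ORA59* at 1.96 and 0.05.

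Genes that differed with arabidopside A and showed little difference in control seedlings were taken by a strict rule. At 20 CPM or more, with no overlap between the treated groups and an unadjusted p over 0.5 in the control comparison, 82 genes were found, 35 increased and 47 decreased in *fer*. None of the 82 was called by the test of the difference itself (edgeR, all 16 libraries), and 2 were with the pair block, *AT1G52270* and *DJ1F*. Among the largest decreases, AT1G52270, an uncharacterized gene, was at 42.1, 41.9, 41.8 and 41.7 CPM in WT and 24.1, 23.4, 15.9 and 11.8 CPM in *fer* (log2 fold change -1.14 ± 0.21 (SE), adjusted p = 0.00256). *DJ1F*, of the DJ-1 family, was at 40, 46.1, 47.7 and 54.6 CPM in WT and 38.6, 27.7, 16.3 and 15.2 CPM in *fer* (log2 fold change -0.94 ± 0.27 (SE), adjusted p = 0.0257, and adjusted p up to 0.0701 without WT replicate 2, 3 or 4 or *fer* replicate 3). *SBP2*, a selenium-binding protein, was at 191, 245, 199 and 216 CPM in WT and 173, 124, 94.8 and 83.7 CPM in *fer* (log2 fold change -0.84 ± 0.21 (SE), adjusted p = 0.0114). Their control log2 fold changes were 0.00, 0.05 and -0.02. Among the increased genes, AT2G08905, AT2G07671 and AT3G41768 had the largest log2 fold changes, and their values are not given here. Next came *UGT84A2*, a sinapate glucosyltransferase, at 23.5, 15.2, 16.4 and 18.2 CPM in WT and 31.7, 37.2, 32.3 and 32.9 CPM in *fer* (log2 fold change 0.87 ± 0.16 (SE), adjusted p = 0.0028, and 0.13 in control seedlings). Outside this rule, *NRT1.5*, a nitrate transporter named after its values were seen, was the 1 gene with a positive difference under the pair block (1.38, adjusted p = 0.00773, edgeR, and 0.0844 without the block). It was at 11.7 to 23 CPM in WT and 32.7 to 47.9 CPM in *fer* with arabidopside A (log2 fold change 1.13 ± 0.20 (SE), adjusted p = 0.00248), and at 56.3 to 99.4 CPM in WT and 49.9 to 70.8 CPM in *fer* in control seedlings (log2 fold change -0.26).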

How the data were processed

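The authors made 3′ QuantSeq libraries and aligned reads to TAIR10 with STAR, and the deposited table holds raw counts per gene from HTSeq (intersection-nonempty mode), not normalized and not corrected for duplicates. Tool versions and the strand option are not given in the sources used here. The table held 32833 genes, 6850 without a count.

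The 8 arabidopside A libraries were fitted alone with edgeR 4.0.16 in R 4.3.3 (filterByExpr, TMM, robust quasi-likelihood F test, 2-sided, Benjamini-Hochberg over all genes tested, threshold 0.05), the 8 control libraries likewise, and the difference of both contrasts over all 16 with 1 coefficient per group. CPM was scaled by TMM within the treated and within the control libraries separately. SEs belong to log2 fold changes and are approximate. Each was worked out as the size of the log2 fold change divided by the square root of its F statistic. Replicates were those the labels number. No pair of libraries within a group agreed within sampling noise (chi-square per gene at least 2.61). The p-values set a difference against the spread between these samples, with 1 dispersion per gene for both genotypes although *fer* was more variable.

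The named genes were *FER*, the 10 largest called changes in each direction (20 CPM or more, no overlap), up to 4 called and 2 uncalled members of each list, the 6 smallest adjusted p values of the difference, and up to 4 genes per direction called only with arabidopside A (control p over 0.5), and the text gives most of these. *JAZ3*, *OPR3*, *MYC2*, *OPCL1*, *FAMT*, *TAT3*, *CLH1*, *PGIP2* and *NRT1.8*, called for the difference, and *NRT1.5* were added after their values were seen. The members and the 25 lists (437 of 455 entries, those whose ID and symbol the RefSeq annotation pairs) were chosen with earlier results of these data known.

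Same-numbered WT and *fer* libraries did not deviate together (correlations -0.0895 to 0.0118), whereas same-numbered control and treated *fer* libraries did (0.186 to 0.61, mean 0.384, against -0.126 for other pairs), and the pair block is therefore given beside the difference. The alternatives were other scalings and filters, DESeq2 1.42.0, limma-voom (limma 3.58.1), blocks, thinning to the smallest total, a fold minimum and leaving out libraries. Counts over lists and single difference genes under these were added after the data were seen. The scripts were tested on simulated data.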

Additional observations from a re-analysis of the deposited data

Results flagged for a closer look

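Of 282 groups of 4 libraries examined, 13 held 1 library whose gap to the nearest other library took up more of the range than the 95% limit for 4 values allows, and chance gives that in about 1 in 20 groups. In *fer* replicate 4, *ARD3* (166.5 CPM), *ZAT12* (197.8 CPM), *SUR1* (111 CPM) and *CML38* (496.6 CPM) were far above the other *fer* libraries and *IAA1* (23.4 CPM) far below them. *WRKY18* stood apart in *fer* replicate 2 (131 CPM) and *NCED3* in *fer* replicate 1 (6.95 CPM). Among WT libraries, *JAZ9* was apart in replicate 3 (130.3 CPM), and *ERF5* (13.6 CPM), *MAM3* (36.3 CPM), *CYP707A2* (8.80 CPM) and AT5G61160 (174.6 CPM) in replicate 2. The total of *fer* replicate 2 was 26358335 counts, far above the other *fer* totals, and thinning every library to the smallest total left 4804 called genes.

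The genotype difference itself differed between arabidopside A and control seedlings for 20 genes by the edgeR quasi-likelihood test over all 16 libraries. The treated minus the control log2 fold change was -3.07 for *JAZ5*, -1.93 for *JAZ6*, -1.99 for *JAZ1*, -1.36 for *JAZ3*, -2.28 for *ERF2*, -1.93 for *ORA59* and -1.36 for *MYC2*. It was -1.45 for *OPCL1*, -1.09 for *OPR3*, -2.70 for *TAT3*, -2.51 for *CLH1*, -3.38 for *FAMT*, -2.25 for *PGIP2*, -1.56 for *NRT1.8*, -1.05 for *RAP2.9* and -1.05 for *CB5-C*. It was also -2.72 for AT4G24350, -2.53 for AT3G23550, -2.38 for AT5G61160 and -3.19 for AT1G59950.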

How the results depend on the processing

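The 5292 genes that differed with arabidopside A became 2908 (1790 higher, 1118 lower) from replicates 1 and 2 alone and 2494 (1765 higher, 729 lower) when the log2 fold change had to be at least 1 as well, which removes called genes by construction. Replicates 3 and 4 alone, as many libraries, gave 4766, and the cause of the lower count was not tested. Leaving out 1 library gave 3739 to 6247, and the other alternatives 4613 to 5898. With the replicate number as a block 4557 genes were called (4122 of the control comparison), and 18 for the difference, the numbers not pairing WT with *fer*. The 4620 genes of the control comparison became 3157 to 5466 without 1 library. The 20 genes of the difference became 51 with DESeq2, 53 with the pair block and 13 to 22 without 1 library. The 3364 genes called alike in both became 1684 with the fold minimum and 2520 to 3809 without 1 library. Of 114 called named genes, 74 were called under every alternative that tested them, and 22 were lost from replicates 3 and 4 alone. Signs turned only for genes that had not passed the test: from replicates 3 and 4 alone *AOS* (-0.18), *JAZ9* (-0.18), *BGLU23* (-0.155), *LRX3* (0.16), *CHS* (-0.25), *PGIP2* (-0.27) and *ORA59* (-0.0376), from replicates 1 and 2 alone *XTH24* (-0.20), *KIN2* (0.0599) and *LHCB3* (0.25), and with upper quartile scaling *ORA59* (-0.0254). Without 1 library the log2 fold change spanned -0.0211 to 0.185 for *ORA59*, -0.0255 to 0.214 for *BGLU23*, -0.011 to 0.263 for *CML24*, -0.0192 to 0.306 for *CHS* and -0.0061 to 0.301 for *PGIP2*. Upper quartile scaling gave 2597 higher and 2621 lower. The depth limits genes near 0 in WT, such as *NIMIN1*, for which only a lower bound was given, and SEs rest on the spread between 4 libraries a group.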
